A study of Mus musculus with 36 samples.

Results

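Chromatin accessibility of wild-type donor-specific conventional CD4 T cells (Tconv) that had been exposed to regulatory T cells (Treg) in vivo was compared with that of the same kind of cells without Treg. The members are the 6 ATAC-seq libraries of 36 in the series that are labelled as wild-type Tconv of the HP1α line, 3 with Treg and 3 without, over all 71509 peaks of the series. HP1α-line wild-type cells came from young adult Hp1a+/+ littermates of HP1α-deficient mice on a mixed 129/Sv and C57BL/6 background, so they carry no HP1 deletion. Their naive CD4 T cells were injected into lethally irradiated B6 mice, together with an equal mix of syngeneic B6 and semi-allogeneic B6D2F1 bone marrow, alone or with Treg that had been expanded ex vivo from B6 Foxp3-Thy1.1 reporter mice. After 3 weeks, TCR Vβ6+ Tconv were sorted from the spleen, with the Thy1.1+ Treg gated out. The hosts are lymphopenic, so the injected cells also divide in response to the empty niche, and the Treg dose behind these libraries is not given in the sources used here. The labels number the replicates but do not say which mouse or pool each came from, so the p-values measure the spread between libraries. That spread was estimated over all HP1α-line groups fitted together, naive and knockout cells included. The study left out the third Treg library for low signal, and the counts of called peaks are given with 2 Treg libraries, as the study kept them, and with all 3. The 3 naive libraries of the same line give the level before transfer, and HP1γ-line wild-type libraries, from floxed littermates without Cre, give the same comparison in other mice.

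Treg restrain conventional T cells by consuming interleukin-2, by removing costimulatory ligands from antigen-presenting cells through CTLA-4, and by releasing inhibitory signals such as TGF-β, interleukin-10 and adenosine. A T cell that receives antigen without full costimulation can become anergic, and one that receives it for a long time can become exhausted, a state marked by inhibitory receptors such as PD-1 and by the nuclear factor TOX. ATAC-seq counts the places where the Tn5 transposase can cut the DNA, so a peak marks an open promoter or enhancer, and its read count is a measure of how open it is over all cells of the library. In such bulk libraries, fewer cells with an open site and less opening in each cell cannot be told apart.

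The peaks that were more open with Treg held the AP-1 and NFAT motifs more often than peaks did at large, and the peaks that were less open held the RUNX motif more often. The central 200 bases of 6 of them are shown first, as examples of called peaks that hold these motifs. All are reference sequence of GRCm39, read 5′ to 3′ on the plus strand, with the motif in capitals, whichever strand it lies on. The first pair was more open with Treg. One lies in an intron of Tox, 31.9 kb from its start site (chr4:6958326-6958525), and holds NFAT. The other lies between genes, 25.1 kb from the start of Eea1 (chr10:95750441-95750640), and holds AP-1. The Eea1 peak also holds an NFAT match, which is left in lower case. The other 4 were less open with Treg and hold RUNX. They lie between genes, 11.3 kb from the start of Runx3 (chr4:134836061-134836260), 14.6 kb from Ccl5 (chr11:83441251-83441450), 12.8 kb from Il18rap (chr1:40540881-40541080) and 1.58 kb from Dohh (chr10:81217981-81218180).
Tox peak: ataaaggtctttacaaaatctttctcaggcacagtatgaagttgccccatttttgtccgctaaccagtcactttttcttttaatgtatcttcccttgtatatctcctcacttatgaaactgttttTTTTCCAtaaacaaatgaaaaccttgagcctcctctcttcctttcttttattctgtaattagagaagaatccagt
Eea1 peak: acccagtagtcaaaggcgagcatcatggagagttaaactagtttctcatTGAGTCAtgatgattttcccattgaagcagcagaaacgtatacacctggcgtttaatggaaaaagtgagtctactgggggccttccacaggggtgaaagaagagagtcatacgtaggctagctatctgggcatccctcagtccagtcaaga
Runx3 peak: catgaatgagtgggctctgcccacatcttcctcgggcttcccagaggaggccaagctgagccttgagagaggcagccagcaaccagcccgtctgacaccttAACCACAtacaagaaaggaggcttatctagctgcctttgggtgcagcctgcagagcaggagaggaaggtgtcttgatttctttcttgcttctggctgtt
Ccl5 peak: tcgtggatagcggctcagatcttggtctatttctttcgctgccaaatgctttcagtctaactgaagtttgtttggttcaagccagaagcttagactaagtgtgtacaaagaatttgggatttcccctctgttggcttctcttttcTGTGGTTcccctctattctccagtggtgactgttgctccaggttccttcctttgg
Il18rap peak: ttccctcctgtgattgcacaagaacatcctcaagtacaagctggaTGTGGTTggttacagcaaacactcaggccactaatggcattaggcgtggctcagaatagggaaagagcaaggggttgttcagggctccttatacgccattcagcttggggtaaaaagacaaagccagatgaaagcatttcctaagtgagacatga
Dohh peak: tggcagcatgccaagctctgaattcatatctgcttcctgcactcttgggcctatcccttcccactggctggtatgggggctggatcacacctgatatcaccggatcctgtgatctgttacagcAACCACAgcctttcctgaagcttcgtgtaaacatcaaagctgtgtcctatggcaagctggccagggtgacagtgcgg

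Before any comparison, the libraries differed in depth and quality. The Tconv libraries held 74448462, 19698436 and 6202786 reads in peaks, and the Treg libraries held 12691169, 1486053 and 3199447. The shallowest, Treg replicate 2, had 8853 peaks with no read. Reads near a transcription start site (TSS) made up 70.3 to 73.4% of the reads in Tconv, 72.3% and 68.6% in the first pair of Treg libraries and 63.3% in the third. Across peaks, log2 CPM (read counts scaled to an equal, TMM-adjusted library total) correlated between Tconv libraries at 0.9 to 0.957 and between Treg libraries at 0.699 to 0.851. Depth therefore moved with the groups, and the counts with depth as a covariate and with all libraries thinned to the shallowest are given in the closing section.

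With Treg, accessibility changed at many peaks, in both directions. With the 2 Treg libraries kept by the study, 2822 of 71509 peaks were more open (3.95%) and 2538 less open (3.55%), at an adjusted p under 0.05 and a log2 fold change over 1 in size by edgeR's quasi-likelihood test. Their median log2 fold change was 1.72 for the higher and -1.46 for the lower peaks. With all 3 Treg libraries, 2509 of 71508 peaks were called higher (3.51%) and 1993 lower (2.79%). Both fits called 2019 peaks higher, which is 71.5% of those of the first and 80.5% of those of the second, and 1471 lower, which is 58.0% and 73.8%. The fits share 5 of 6 libraries, so their overlap is not independent evidence. All 3 Treg libraries lay above all 3 Tconv libraries at 7956 peaks, 11.1% of all, and below them at 8675, 12.1% of all. Of the peaks called with the kept libraries, 2309 higher (81.8%) and 1940 lower (76.4%) were among those. At 85 peaks neither kept Treg library had a read. Of these, 25 were called lower, 5 of them with all 3 Treg libraries too, and their fitted fold changes depend on the count added to every library.

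The balance of the directions moved with the method and with the libraries used. The fit with the trended dispersions of the edgeR version that the study used put 52.6% of the calls higher, the newer quasi-likelihood method of edgeR 4 put 72.8% of 4839 calls higher, and limma voom put 77.2% of 3117 higher. With Treg replicate 1 or 2 left out of the kept libraries, 1 Treg library remains, which is assumed to vary like the other groups. Then 35.7% of 4935 calls were higher without Treg replicate 1, where the shallowest library remains, and 39.4% of 4407 without Treg replicate 2. This holds for every count below that leaves out a Treg library from the kept ones. Without Tconv replicate 1, by far the deepest, 2890 peaks were called in the kept libraries and 1111 with all 3 Treg libraries. With all 3 Treg libraries, scaling by library size alone put 71.7% of the calls higher, against 55.7% with TMM scaling. It moved the median peak to 0.21. Offsets on GC content put fewer calls higher than lower, 48.9% of 5497 with the kept libraries and 46.7% of 5023 with all 3 Treg libraries.

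**Figure D1:**
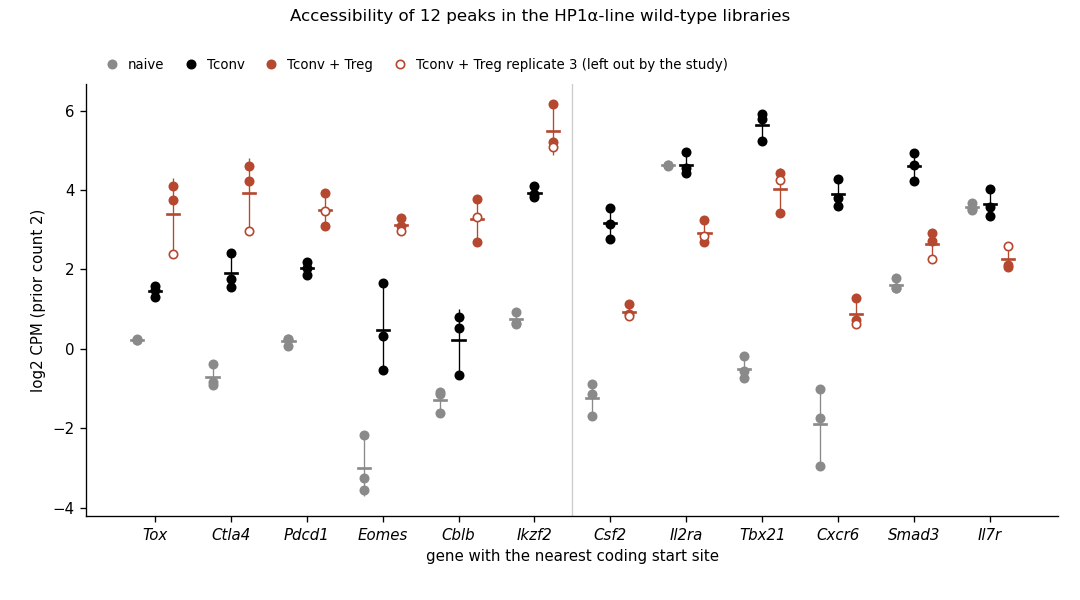
Log2 CPM of 12 peaks, each the called peak of smallest p of the gene named under it, in each HP1α-line wild-type library: naive, Tconv, and Tconv with Treg (open circle, the third Treg library), with bars at the mean and lines of 1 SD over 3 libraries. The 6 on the left lay above Tconv in every Treg library, and the 6 on the right below.

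Called peaks of inhibitory receptor and exhaustion genes were all higher with Treg. Of 284 peaks assigned to 15 such genes by the nearest coding TSS, 32 were called higher (11.3%) and 0 lower (0%) with the kept libraries, against 3.95% and 3.55% of all peaks, and 39 higher and 0 lower with all 3 Treg libraries. The median log2 fold change of the 284 peaks was 0.56 and 0.62, against 0.02 and 0.05 over all peaks. In 29 of the 32, no Treg library overlapped a Tconv library, which was so in 81.8% of all peaks called higher. The kept libraries that made these calls are 5 of the 6 compared there. The counts moved with single libraries. Without Treg replicate 1 the list gave 14 higher and 5 lower with the kept libraries, where the shallowest Treg library stands alone, and 18 higher and 1 lower with all. There were none lower in either fit without Tconv replicate 1, where 20 and 13 were higher. Under the other alternatives at most 6 peaks were called lower with the kept libraries and 4 with all.

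Tox, which encodes a nuclear factor that sets up the exhausted state, held more of these calls than any other gene. Of its 88 peaks, 14 were called higher with the kept libraries and 19 with all. The one of smallest p, in an intron 120 kb from the start site (chr4:6869891-6871220), stood at 1.58, 1.49 and 1.30 in Tconv and 4.10, 3.74 and 2.38 with Treg, in log2 CPM. Every Treg library was above every Tconv library there, the third by the least. Its log2 fold change was 2.50 ± 0.30 (SE), adjusted p = 0.000367, and 2.12 with all libraries. The Tox peak with the NFAT motif shown above stood at 1.25, 1.52 and 1.38 in Tconv and 3.05, 3.10 and 2.38 with Treg (log2 fold change 1.71 ± 0.34, adjusted p = 0.00546). At the Tox start site the log2 fold change was 0.39 (adjusted p = 0.264), and that peak was not called. Tox2, a relative of Tox, had a called peak at its start site, which stood at 5.26, 5.33 and 5.03 in Tconv and 6.73, 6.21 and 5.75 with Treg (log2 fold change 1.30 ± 0.17, adjusted p = 0.000537).

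Among the receptors, Ctla4, which encodes the competitor of CD28 for its ligands, had 3 of 20 peaks called higher. The first of them, in an intron (chr1:60941491-60942700), stood at 1.56, 1.76 and 2.41 in Tconv and 4.23, 4.62 and 2.97 with Treg, in log2 CPM (log2 fold change 2.54 ± 0.34, adjusted p = 0.000564). Pdcd1, which encodes PD-1, had 3 of 9 peaks called higher, the first of them between genes, 21.8 kb away, at 1.85, 2.04 and 2.20 in Tconv and 3.94, 3.10 and 3.47 with Treg (1.65 ± 0.33, adjusted p = 0.00542). Its start site peak gave a log2 fold change of 0.76 (adjusted p = 0.00752), under the size threshold. Btla had 3 of 13 peaks called higher, also with all 3 Treg libraries, and Tigit had 2 of 14, or 1 with all 3. Lag3 and Havcr2, which encode LAG-3 and TIM-3, had no called peak, and their start site peaks gave log2 fold changes of 0.70 (adjusted p = 0.0378) and -0.92 (adjusted p = 0.0314), of opposite sign. Eomes, a T-box factor found in exhausted and cytotoxic T cells, had 4 of 29 peaks called higher, the first of them at -0.54, 0.33 and 1.66 in Tconv and 3.30, 3.10 and 2.97 with Treg. The Nr4a genes encode nuclear receptors that are induced by T cell receptor signals. Nr4a2 had 1 of 7 peaks called higher, while Nr4a1 and Nr4a3 had 0 of 12 each.

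**Figure D2:**
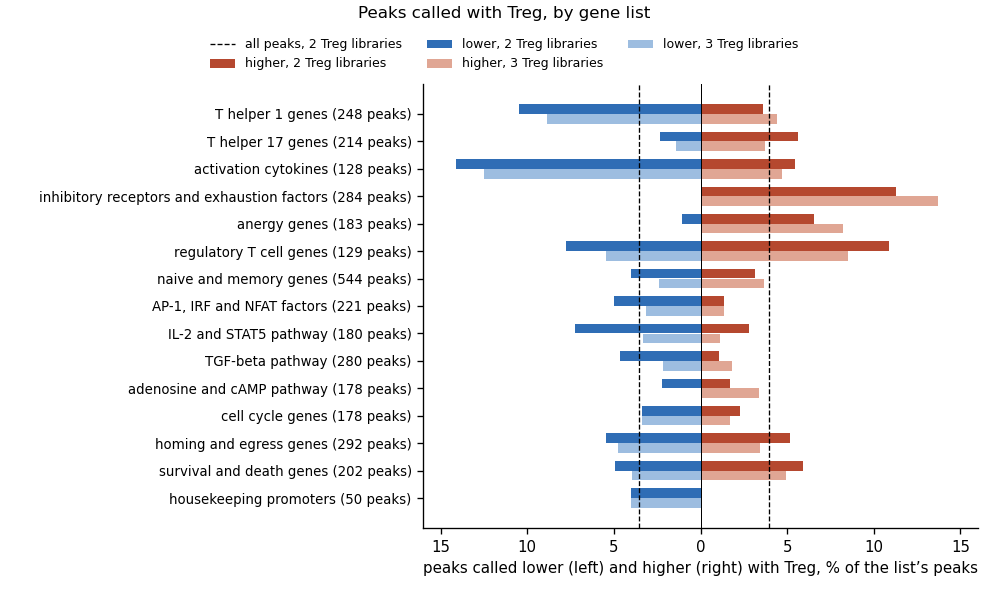
Share of each gene list's peaks that were called lower (left, blue) or higher (right, red) with Treg, with 2 Treg libraries (dark) and with 3 (light), and dashed lines at the share of all peaks with 2 Treg libraries, 3.55% lower and 3.95% higher. The inhibitory receptor list reached 11.3% to the right, close to the Treg gene list at 10.9%, and the cytokine and T helper 1 lists 14.1% and 10.5% to the left.

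Called peaks of cytokine genes of activated T cells were more often lower than higher with Treg. Of 128 peaks of 13 such genes, 18 were called lower (14.1%) and 7 higher (5.47%) with the kept libraries, with a median log2 fold change of -0.47, and 16 lower and 6 higher with all 3 Treg libraries. Csf2, which encodes GM-CSF, held 7 of the 18, of which the fit with all 3 Treg libraries called 3. The first of them, 8.94 kb from the start site (chr11:54130611-54131550), stood at 3.55, 3.15 and 2.78 in Tconv and 0.88, 1.12 and 0.82 with Treg, in log2 CPM. The groups did not overlap, and the log2 fold change was -2.29 ± 0.40, adjusted p = 0.00239, with -2.33 using all libraries. The Csf2 start site peak stood at 1.87 and 2.69 in the kept Treg libraries against 3.39 to 4.14 in Tconv, but at 3.70 in Treg replicate 3.

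Most peaks called at the other cytokine genes were lower too. At Cd40lg, the gene of the helper ligand for B cells and dendritic cells, 3 of 17 peaks were called lower, the first at 3.61, 2.93 and 3.42 in Tconv and 1.05, 1.70 and 1.40 with Treg (log2 fold change -2.14 ± 0.34, adjusted p = 0.00154). Il2 had 2 of 7 peaks called lower, and its start site peak stood at 4.88, 4.31 and 4.07 in Tconv and 3.30, 3.80 and 2.70 with Treg (log2 fold change -0.98, adjusted p = 0.0286, and -1.20 with all libraries). Il13 had 2 of 7 and Il5 1 of 6 called lower, and the lymphotoxin genes Ltb and Lta 1 of 2 and 1 of 4. The start site peak of Tnf gave a log2 fold change of -0.85 (adjusted p = 0.00914), within the size threshold. The 7 peaks called higher were at Il21, the cytokine of follicular helper cells, with 5 of 18 peaks, and at Tnfsf8 and Tnfsf11, which encode the ligands CD30L and RANKL, with 1 each. The first Il21 peak stood at 4.97 and 4.96 in the kept Treg libraries against 3.38 to 3.86 in Tconv, but at 3.29 in the third. Without Treg replicate 1 the list gave 5 higher and 9 lower with the kept libraries, and without Tconv replicate 1 it gave 5 higher and 11 lower. With all 3 Treg libraries but without Tconv replicate 1 it gave 3 higher and 3 lower.

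Called peaks of T helper 1 genes were also more often lower than higher. Of 248 peaks of 16 genes, 26 were called lower (10.5%) and 9 higher (3.63%), and 22 were lower and 11 higher with all 3 Treg libraries. Tbx21, which encodes the T helper 1 master regulator T-bet, had 3 of 9 peaks called lower. The first of them, in an intron 10.1 kb from the start site (chr11:96993811-96996070), stood at 5.92, 5.24 and 5.80 in Tconv and 4.42, 3.42 and 4.25 with Treg, in log2 CPM (log2 fold change -1.54 ± 0.28, adjusted p = 0.00317). In naive cells of the same line its mean level was -0.50. Runx3, which encodes a partner of T-bet, had 4 of 37 peaks called lower, the one shown above at 4.53, 4.08 and 4.20 in Tconv and 2.96, 2.43 and 3.12 with Treg (-1.48 ± 0.29, adjusted p = 0.00519). The chemokine receptor gene Cxcr6 had 4 of 8 called lower, the first at 4.28, 3.61 and 3.80 in Tconv and 1.29, 0.72 and 0.63 with Treg (-2.77 ± 0.53, adjusted p = 0.00447).

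Other T helper 1 members were called at fewer peaks or in both directions. Il12rb2, a chain of the interleukin-12 receptor, had 4 of 14 peaks called lower and 1 higher. The peaks near Ccl5, a chemokine gene, and Il18rap, a chain of the interleukin-18 receptor, whose sequences are shown above, had log2 fold changes of -1.27 ± 0.36 (adjusted p = 0.0348) and -1.10 ± 0.33 (adjusted p = 0.0447). At both every Treg library lay below every Tconv library. Ifng, which encodes interferon-γ, had 2 of its 34 peaks called in each direction, or 2 higher and 0 lower with all 3 Treg libraries, and its start site peak gave -0.45 (adjusted p = 0.286). Of the 9 peaks of the list called higher, 4 belong to Eomes. Without Treg replicate 1 the kept libraries gave 2 higher and 22 lower, without Tconv replicate 2 they gave 3 higher and 22 lower, and without Tconv replicate 1 they gave 4 higher and 10 lower. With all 3 Treg libraries but without Tconv replicate 1 the list gave 3 higher and 1 lower, so the balance there rested on that library. More peaks were higher than lower also with limma voom in the kept libraries, at 9 and 8, and with depth as a covariate in all, at 7 and 6. Of 214 peaks of T helper 17 genes, 12 were called higher (5.61%) and 5 lower (2.34%), against 8 and 3 with all 3 Treg libraries, with 7 of the 12 at Maf, while Il17a and Il17f had none. Without Treg replicate 2 this list gave 4 higher and 3 lower.

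Anergy genes were more often called higher than lower with the kept libraries. Of 183 peaks, 12 were called higher (6.56%) and 2 lower (1.09%), with a median log2 fold change of 0.36, and 15 higher and 0 lower with all 3 Treg libraries. Cblb, a ubiquitin ligase that raises the threshold of activation, held 6 of the 12 among its 54 peaks. The first of them stood at -0.66, 0.52 and 0.81 in Tconv and 3.78, 2.69 and 3.32 with Treg, in log2 CPM, with no overlap of the groups (log2 fold change 3.26 ± 0.53, adjusted p = 0.00172). Nrp1, a surface receptor gene, had 3 called higher and 1 lower, or 5 and 0 with all 3 Treg libraries. Nt5e, which encodes the adenosine-producing enzyme CD73, had 1 of 12 called higher, or 3 with all 3, the first at 1.58, 2.28 and 2.29 in Tconv and 4.15, 3.86 and 2.84 with Treg. Egr2 and Izumo1r, the gene of FR4, had none. Left with 1 Treg library, replicate 2, the kept libraries gave the other direction. Without Treg replicate 1 the list gave 4 higher and 7 lower with the kept libraries, without Treg replicate 2 it gave 5 higher and 3 lower, and without Tconv replicate 1 it gave 3 higher and 0 lower with all 3 Treg libraries.

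Genes that are characteristic of Treg themselves were called in both directions. Of 129 peaks, 14 were called higher (10.9%) and 10 lower (7.75%), with a median log2 fold change of -0.12, and 11 higher and 7 lower with all 3 Treg libraries. Ikzf2, which encodes Helios, had 8 of 29 peaks called higher, the first at 4.10, 3.90 and 3.82 in Tconv and 6.18, 5.21 and 5.09 with Treg, in log2 CPM (log2 fold change 1.87 ± 0.27, adjusted p = 0.000839). Il10, the gene of an inhibitory cytokine, had 4 of 15 called higher and 1 lower, or 1 and 0 with all 3 Treg libraries. Il2ra, which encodes the high-affinity chain of the interleukin-2 receptor, had 3 of 12 called lower, and its start site peak (chr2:11646811-11648160) stood at 4.96, 4.42 and 4.55 in Tconv and 3.25, 2.69 and 2.84 with Treg (-1.56 ± 0.23, adjusted p = 0.000923). Foxp3, the defining factor of Treg, had 0 of 2 called, and its start site peak stood at 6.54, 6.17 and 6.21 in Tconv and 6.24, 5.84 and 4.92 with Treg. These groups overlapped. Without Treg replicate 1 the list gave 3 higher and 6 lower with the kept libraries, and without Tconv replicate 1 it gave 9 higher and 2 lower with all.

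Signals that Treg act through were followed next. In the IL-2 and STAT5 pathway, of 180 peaks, 13 were called lower (7.22%) and 5 higher (2.78%), and 6 were lower and 2 higher with all 3 Treg libraries. Cish, a feedback inhibitor that STAT5 induces, had its start site peak at 8.59, 8.25 and 8.12 in Tconv and 7.15, 6.94 and 7.26 with Treg, in log2 CPM (log2 fold change -1.27 ± 0.19, adjusted p = 0.00123). Socs2, another such inhibitor, had 3 of 7 called lower, or 1 with all 3 Treg libraries. The 5 called higher were all at Bcl2, a survival gene, which had 2 with all 3. In the TGF-β pathway, of 280 peaks, 13 were called lower (4.64%) and 3 higher (1.07%), near the 3.55% lower of all peaks, and 6 were lower and 5 higher with all 3 Treg libraries. Smad3, a signal transducer of TGF-β, held 9 of the 13 among 30 peaks, or 5 with all 3 Treg libraries, the first at 4.93, 4.63 and 4.24 in Tconv and 2.73, 2.91 and 2.26 with Treg (-1.85 ± 0.26, adjusted p = 0.000826). Itgb8, whose protein activates latent TGF-β, had 2 of 5 peaks called higher, or 1 with all 3 Treg libraries, the first over its start site at 2.15, 2.77 and 3.50 in Tconv and 5.85, 5.27 and 4.91 with Treg (2.79 ± 0.42, adjusted p = 0.00106). In the adenosine and cAMP pathway, 3 of 178 peaks were called higher (1.69%) and 4 lower (2.25%), against 3.95% and 3.55% of all peaks. With all 3 Treg libraries 6 were higher and 0 lower. Without Tconv replicate 1 the kept libraries gave 1 higher and 7 lower in the IL-2 list and 1 higher and 8 lower in the TGF-β list, and with all 3 Treg libraries 1 higher and 2 lower and 1 higher and 3 lower.

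AP-1, IRF and NFAT factors act downstream of the T cell receptor. Of 221 peaks of their genes, 11 were called lower (4.98%) and 3 higher (1.36%), and 7 were lower and 3 higher with all 3 Treg libraries. Nfatc2, which encodes the calcium-regulated factor NFAT1, held 5 of the 11, the first in an intron at 5.50, 5.04 and 5.06 in Tconv and 2.80, 3.69 and 3.72 with Treg, in log2 CPM (log2 fold change -2.10 ± 0.29, adjusted p = 0.000664). Nfil3, the gene of a bZIP repressor, had its start site peak called higher, at 3.10, 2.53 and 2.33 in Tconv and 4.50, 4.42 and 4.06 with Treg (1.75 ± 0.33, adjusted p = 0.00372). Junb, Jund and Fosl2 had none. Without Tconv replicate 1 the list gave 2 higher and 7 lower with the kept libraries and 1 higher and 2 lower with all.

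Naive and memory genes were called in both directions, at about the shares of all peaks. Of 544 peaks, 17 were called higher (3.12%) and 22 lower (4.04%), against 3.95% and 3.55% of all peaks. With all 3 Treg libraries 20 were higher and 13 lower. Foxp1, a factor that keeps T cells quiescent, had 9 of 96 called higher and 0 lower. Il7r, the gene of the interleukin-7 receptor chain, had 6 of 20 called lower, the first at 4.04, 3.57 and 3.34 in Tconv and 2.06, 2.11 and 2.60 with Treg, in log2 CPM (log2 fold change -1.63 ± 0.30, adjusted p = 0.00345). Satb1, a genome organizer, had 6 and Lef1, a naive T cell factor, 5 called lower with the kept libraries, against 3 and 1 with all 3 Treg libraries. Homing genes had 15 called higher (5.14%) and 16 lower (5.48%) of 292, or 10 and 14 with all 3 Treg libraries. Cxcr4, a chemokine receptor of bone marrow homing, held 7 of the 15, or 4 with all 3 Treg libraries. The start site peak of the inflammatory chemokine receptor gene Ccr2 stood at 5.53, 5.11 and 4.96 in Tconv and 3.35, 2.91 and 3.92 with Treg (-2.00 ± 0.26, adjusted p = 0.000485). Without Treg replicate 2 the naive and memory list gave 10 higher and 30 lower with the kept libraries, and without Tconv replicate 1 it gave 5 higher and 2 lower with all.

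Of 202 peaks of survival and death genes, 12 were called higher (5.94%) and 10 lower (4.95%), or 10 and 8 with all 3 Treg libraries. Without Tconv replicate 1 the kept libraries gave 4 and 6. Bcl2l11, which encodes the death inducer BIM, had 6 of 40 called higher and 1 lower, and Traf1, an adaptor that is induced on activation, had 4 of 9 called lower. Cell cycle genes had 4 called higher (2.25%) and 6 lower (3.37%) of 178, against 3.95% and 3.55% of all peaks. With all 3 Treg libraries 3 were higher and 6 lower. Of those lower with the kept libraries, 3 were at Cdkn1a, the gene of the inhibitor p21, while the proliferation genes Mki67 and Cdk1 had none. Housekeeping genes had 0 higher and 2 lower of 50 peaks in both fits, with a median log2 fold change of -0.17, which is below the 0.02 of all peaks.

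Peaks far from a gene weighed on some of these lists. Among peaks within 50 kb of the start site, the kept libraries gave 15 higher and 0 lower for the inhibitory receptor list, 7 and 18 for the cytokine list, 3 and 22 for the T helper 1 list and 7 and 1 for the anergy list, in the directions given above. Other lists changed. T helper 17 genes went to 4 higher and 3 lower, Treg genes to 7 and 9, naive and memory genes to 14 and 8, homing genes to 4 and 14 and survival genes to 4 and 8. Assigned by the nearest start site of any gene, T helper 17 genes had 0 higher and 1 lower, naive and memory genes 10 and 3, and homing genes 1 and 9.

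The other cell types that a spleen sort could hold were checked at the start site peaks of their markers, as summed CPM. B cell markers summed to 9.98 to 11.7 in Tconv and to 21.7 to 22.6 with Treg, which did not overlap, and 3 of their 26 peaks were called higher, all at Pax5. Cd79a, Ms4a1 and Blk had no start site peak. NK cell markers summed to 5.55 to 19.6 in Tconv and 2.22 to 6.77 with Treg, myeloid markers to 55.8 to 69 and 60.4 to 81.4, dendritic cell markers to 28.5 to 37.5 and 28.6 to 40.7, erythroid markers to 7.09 to 11.6 and 11.4 to 21.7, and CD8 T cell markers to 3.22 to 8.72 and 5.22 to 10.6. Of 21 peaks of the myeloid markers, 2 were called higher and 3 lower, of 12 of the dendritic cell markers 0 and 2, and of 18 of the NK cell markers 0 and 2. CD4 T cell markers summed to 665 to 914 in Tconv and 524 to 776 with Treg, far above every other list, and 4 of their 68 peaks were called lower. The part of these cells in the gene lists above was not tested.

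The peaks of smallest p in both directions were mostly away from the lists. Those called higher lay at the start of the RNA gene C530044C16Rik, in introns of Arhgap10 and Stk39, in an exon of Synrg, at Hivep3, at the start of Arhgap29, and near Eea1 and Tank. Stk39 encodes a stress kinase and Arhgap29 a regulator of the RhoA GTPase. The Stk39 peak (chr2:68131881-68132970) stood at 0.92, 1.74 and 0.92 in Tconv and 4.78, 4.74 and 3.44 with Treg, in log2 CPM (log2 fold change 3.53 ± 0.33, adjusted p = 5.81e-05). The Eea1 peak with the AP-1 motif stood at 2.40, 2.68 and 3.15 in Tconv and 5.91, 5.62 and 4.40 with Treg (3.06 ± 0.29, adjusted p = 5.81e-05). At each of the 8 peaks the third Treg library lay below the kept Treg libraries, while its place above Tconv was fixed by the choice of peaks whose groups do not overlap.

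Those called lower lay near Dohh and Ifitm3, at Hemk1, in an intron of Vps37c, in an annotated intron of Ccl1, in an exon of Itgb3, at the start of the olfactory receptor gene Or10p22, and in an intron of an unnamed gene nearest to Ubl3. The Dohh peak with the RUNX motif stood at 4.37, 4.36 and 4.63 in Tconv and 2.09, 1.70 and 2.80 with Treg, in log2 CPM (log2 fold change -2.46 ± 0.28, adjusted p = 0.000258). The peak of Ccl1, the gene of a chemokine of activated T cells, lay 34.0 kb from its start site and stood at 5.63, 5.07 and 5.35 in Tconv and 3.40, 3.49 and 3.52 with Treg (-1.93 ± 0.24, adjusted p = 0.000474). From naive cells to Tconv in the HP1γ line it had a log2 fold change of 4.39. The Or10p22 peak was the one of the 8 at which Treg replicate 3 was the lowest library, at 2.97.

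Activation itself was taken from the HP1γ line, where wild-type Tconv were compared with naive cells, since those libraries enter no Treg comparison above. Of 15655 peaks that activation had closed there, 795 were called higher with Treg in the HP1α line (5.08%) and 167 lower (1.07%), with a median log2 fold change of 0.34. With all 3 Treg libraries the counts were 787 and 83, and the median 0.54. Of 18031 peaks that activation had opened, 1121 were called higher (6.22%) and 1036 lower (5.75%), so both directions were above the 3.95% and 3.55% of all peaks. The 37823 peaks not called for activation were below or at those shares, with 906 higher (2.40%) and 1335 lower (3.53%). In the fit with all 3 Treg libraries, 1029 of the opened peaks were called higher and 793 lower, and 693 and 1117 of those not called. Some peaks named above, in either direction, were among the opened ones. The first called peaks of Ctla4, Eomes, Csf2, Tbx21 and Cxcr6 all had positive activation changes, from 2.61 to 7.77 on the log2 scale. Those of Tox, Tox2, Cd40lg and Il2ra were not called for activation.

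**Figure D3:**
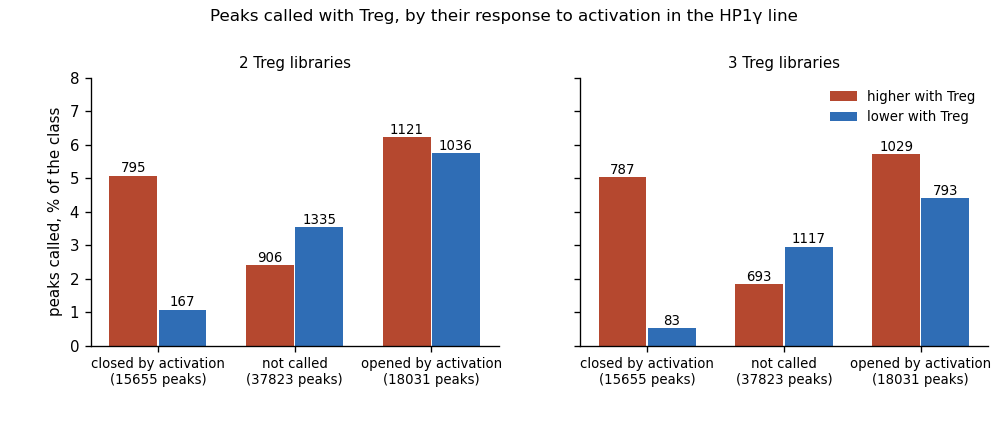
Percent of peaks called higher (red) or lower (blue) with Treg in HP1α-line wild-type Tconv, in classes by the change from naive to Tconv in the HP1γ line, with 2 Treg libraries (left) and 3 (right), and the number of peaks over each bar. Peaks closed by activation were seldom called lower, and opened peaks were called in both directions.

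The called peaks differed from peaks at large in place, width and sequence. Peaks called higher in both fits lay within 1 kb of a TSS in 24.6% and lower ones in 30.5%, against 34.0% of all peaks, and were a median 27.2 and 12.5 kb from the nearest coding TSS, against 12.1 kb. They were wider, with medians of 1000 and 1300 bp against 750 bp, and their GC content was 45.5% and 46.6% against 48.0%. In Tconv without Treg the higher peaks had a median level of 1.34 log2 CPM and the lower ones 3.75, against 1.66 for all.

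For 16 motifs, the share of peaks that hold a match in their central 200 bp was counted on both strands, allowing overlaps. AP-1 (TGANTCA), the site of Fos and Jun dimers, was in 19.6% of the peaks called higher with the kept libraries, in 9.5% of all peaks and in 7.09% of those called lower. With all 3 Treg libraries the shares were 19.1% of the higher and 7.28% of the lower peaks. NFAT (TGGAAAA), whose factors can bind together with AP-1, was in 8.58%, 4.58% and 3.66%, in the same order. NR4A (AAAGGTCA) was in 2.3%, 1.34% and 0.63%, and TCF and LEF (CTTTGAA) in 7.94%, 5.53% and 4.61%. RUNX (TGTGGTT) went the other way, with 9.25% of the higher peaks, 9.63% of all and 14.7% of the lower ones, as did AGATAAG, the motif of GATA factors, with 2.2%, 2.63% and 4.37%. Using all 3 Treg libraries, NFAT was in 8.01% of the higher and 3.66% of the lower peaks, and RUNX in 10% and 13.8%. CTCF was less frequent in both, at 2.83% and 3.94%, than in all peaks, at 6.84%.

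AP-1 kept this order in each activation class, and RUNX was most frequent in the lower peaks of each. AP-1 was in 26% of the opened peaks called higher, 17% of all opened peaks and 8.49% of those called lower, and in 11.1%, 6.59% and 3.59% of the closed ones. In peaks not called for activation it was in 19.2%, 7.12% and 6.44%. RUNX was in 10.3%, 13.7% and 17.2% of the opened peaks, in 9.43%, 10% and 15.6% of the closed ones and in 7.84%, 7.54% and 12.7% of the others. Away from start sites, AP-1 was in 21.3%, 11.2% and 8.26%, and RUNX in 10.8%, 11.6% and 16.2%. The other motifs were T-box (AGGTGTGA), ETS (CCGGAAGT), IRF (GAAANNGAA), NF-κB (GGGANTTCC), STAT (TTCNNNGAA), forkhead (TGTTTAC), KLF and SP (GGGCGTGG), the bZIP site CRE (TGACGTCA) and an E-box (CAGCTG). T-box, the motif of T-bet and Eomes, was in 1.45% of the higher, 1.39% of all and 1.93% of the lower peaks. IRF was in 8.08%, 7.39% and 6.11%. In a window of 400 bp AP-1 was in 29.7%, 15.9% and 13.9%, and RUNX in 15.2%, 15.7% and 23.4%.

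**Figure D4:**
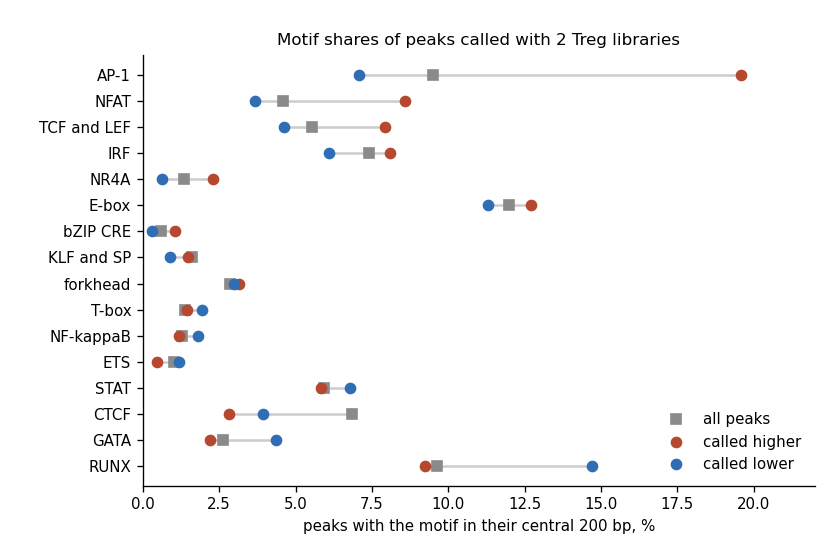
Percent of peaks with each motif in their central 200 bp, for all peaks (grey squares), peaks called higher (red) and peaks called lower (blue) with 2 Treg libraries. AP-1, NFAT and TCF and LEF lie to the right in higher peaks, and RUNX and GATA in lower peaks.

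The same comparison in wild-type mice of the HP1γ line, which shares no library with the one above, called fewer peaks. There 644 of 71508 peaks were higher with Treg (0.901%) and 42 lower (0.0587%). Of the 2822 peaks called higher in the HP1α line, 121 were called higher in the HP1γ line (4.29%) and 0 lower, and 92.1% had a positive log2 fold change, against 53.6% of all peaks, with a median of 0.58. Those 121 are 18.8% of the 644. Of the 2538 called lower, 6 were called lower (0.236%) and 0 higher, and 11.5% had a positive value, with a median of -0.34. Those 6 are 14.3% of the 42. Across the 71508 peaks the log2 fold changes of the lines correlated with Pearson's r of 0.47 and Spearman's rho of 0.51, or 0.58 and 0.61 with all 3 Treg libraries, given as a description, since peaks of a library share depth and base composition.

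In the HP1γ line the inhibitory receptor and exhaustion genes had more calls than any other list, with 13 of 284 peaks higher (4.58%) and 1 lower, against 0.901% and 0.0587% of all peaks. Of the 13, 10 were at Tox. The cytokine list had 0 higher and 1 lower of 128, and the T helper 1 list 2 and 0 of 248. Of peaks closed by activation, 571 of 15655 were called higher with Treg (3.65%), but that class was defined on the same Tconv libraries. The HP1γ-line libraries held 19442013 to 69210420 reads, more than each HP1α-line Treg library, and line, background and preparation cannot be told apart from each other in the comparison of the lines. The order of the AP-1 and RUNX shares was absent in the HP1γ line, where AP-1 was in 8.7% of the 644 peaks called higher, 11.9% of the 42 called lower and 9.5% of all, and RUNX in 10.6% and 9.52% of the called and 9.63% of all. The lower shares rest on 5 and 4 peaks. NFAT was in 6.21% of the higher and 2.38% of the lower peaks there, and TCF and LEF in 14.8% and 9.52%, above the 4.58% and 5.53% of all peaks in the higher ones.

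**Figure D5:**
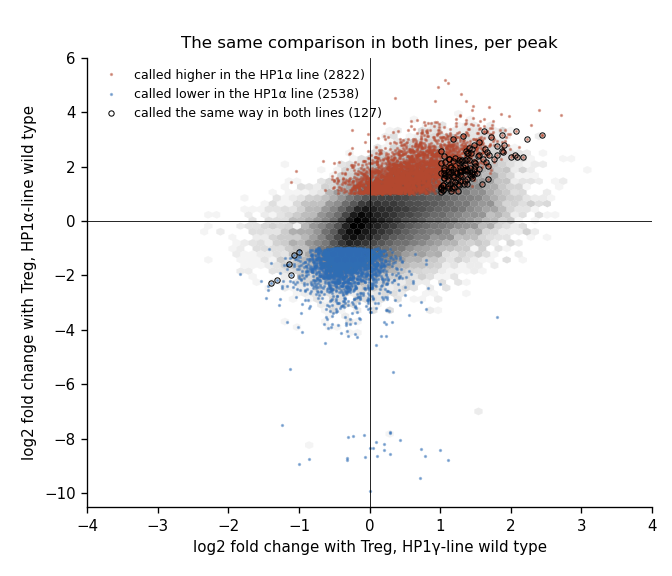
Log2 fold change with Treg in HP1γ-line (x axis) and HP1α-line (y axis, kept libraries) wild-type Tconv for each peak, with grey shading for the number of peaks. Peaks called in the HP1α line are red and blue, and circles mark the 127 called the same way in both lines, 121 higher and 6 lower.

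The difference of the Treg effect between the lines was tested directly. With the kept libraries, 92 of 71509 peaks had a larger value in the HP1α line (0.129%) and 279 a smaller one (0.39%), by the same thresholds. With all 36 libraries 1 peak was left, and with the libraries of the compared groups alone, with voom or with the method of edgeR 4 there were 0, where 6886, 7616 and 7481 peaks had an unadjusted p under 0.05. Tests of the difference were therefore not stable, and no gene is called particular to the HP1α line from them. The peaks of smallest p were at Nfkb1, near Cbr4 and near Ctdp1 among the larger values, and at Slc25a11, in Ubxn11 and near Ifngr1 among the smaller ones. The peak at Nfkb1, which encodes a subunit of NF-κB, stood at 4.77, 4.42 and 4.78 in Tconv and 6.13, 5.83 and 5.23 with Treg in the HP1α line, in log2 CPM, and at 5.20, 5.21 and 5.32 in Tconv and 5.19, 5.30 and 4.77 with Treg in the HP1γ line. The difference of the log2 fold changes was 1.42 (adjusted p = 0.0159 by edgeR, and 0.151 with all 36 libraries). The peak near Ifngr1, the gene of the interferon-γ receptor chain, was at 0.22 and 0.15 in the kept Treg libraries, which hold 15 and 2 reads there, against 2.15 to 2.48 in Tconv, but at 2.50 in Treg replicate 3.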

How the data were processed

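The series holds 36 ATAC-seq libraries of sorted CD4 T cells, 3 in each of 12 groups. The authors trimmed the reads with Trim Galore 0.6.7, aligned them to GRCm39 with BWA, kept well-mapped reads outside blacklisted regions, removed duplicates, called peaks with HMMRATAC in each sample, merged them, and counted reads with featureCounts 2.0.3. The deposited values are raw counts per consensus peak, with no normalization. The study left out 3 HP1α-line libraries, among them the third wild-type Treg library, for a low share of reads in peaks and low enrichment at start sites.

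Of 71512 intervals, 3 of no width were left out. Groups came from the labels, every library column was used (0 unused), and the peaks of all 37 contigs lie within GRCm39. Each peak was assigned to the nearest protein-coding TSS, from any distance, and called a TSS peak within 1 kb. Counts were normalized by TMM and tested with edgeR 4.0.16 in R 4.3.3, by the two-sided quasi-likelihood F test with trended dispersions and Benjamini-Hochberg adjustment over all peaks. The fit with the kept libraries holds 15 HP1α-line libraries, and that with all holds 18. Peaks were called at an adjusted p under 0.05 and a log2 fold change over 1 in size. Levels are log2 CPM with a prior count of 2. The difference between lines was tested in 33 libraries, and also in all 36. With 1486053 to 74448462 reads in peaks per library, precision is lowest in Treg replicate 2.

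On simulated counts for the 71509 peaks, 200 were changed by 2 on the log2 scale. With the kept libraries 68.5% of them were recovered, with 8 false calls, and with all libraries 75%, with 8. The counts were drawn with the fitted trended dispersions, so differences in library quality other than depth are not in them. Named peaks are the 8 of smallest p in each direction among those called in both fits whose libraries do not overlap, not on chromosome 18, the start site peak and the called peak of smallest p of each list gene, and the 3 of smallest p in each direction of the difference between lines. The comparison, the 22 gene lists and the 16 motifs were chosen with earlier results of these data known. Alternatives used limma 3.58.1 and DESeq2 1.42.0, other scalings, offsets and covariates, thinned counts, a replicate block and each library left out. Motifs and sequences were read with pysam 0.24.0 in Python 3.11.15 and plotted with matplotlib 3.10.9.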

Additional observations from a re-analysis of the deposited data

Results flagged for a closer look

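With the kept libraries, the test of the difference itself, which was not stable, called 371 peaks between the HP1α and HP1γ lines. Those of smallest p had a difference, HP1α minus HP1γ, of 1.65 at Cbr4, 3.51 at Ctdp1, 1.42 at Nfkb1, -1.02 at Slc25a11, -4.18 at Ubxn11 and -2.30 at Ifngr1 on the log2 scale. The Ubxn11 peak held 2, 0 and 2 reads in the HP1α-line Treg libraries, and the Ifngr1 peak held 15, 2 and 26. With all 36 libraries the adjusted p of these 6 peaks by edgeR was 0.0898 to 0.454.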

How the results depend on the processing

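The number of peaks called with the kept libraries, 5360, went to 2690 when only the compared groups were fitted, 3117 with limma voom, 3347 with depth as a covariate and 2991 with counts thinned to the shallowest library, and from 2890 to 6283 with 1 library left out. With all 3 Treg libraries, the 4502 calls went to 2871, 1884, 2388 and 2150 under the same settings, and from 1111 to 5122 with 1 library left out, the lowest without Tconv replicate 1. The cause was not tested. The calls shared with the reported ones were 2566 of the 2690 and 2632 of the 3117, but 2225 of the 2991 thinned and 2769 of the 3347 with depth. Other scalings, the low-count filter, DESeq2, the share of reads near start sites and autosomes alone kept both counts within 1.5 times. The method of edgeR 4, chosen after seeing the data, gave 4839 and 5567 calls, with 72.8% and 72.5% higher, and voom gave 77.2% and 71.1%.

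The 371 peaks of the difference between lines were the least stable. They became 862 with library size scaling, 920 with DESeq2, 1057 with offsets on abundance, 39 with offsets on GC content, 998 with depth and 863 with the start site share as a covariate, 196 thinned, 99 on autosomes, 1 with all libraries, 0 with voom, 0 with edgeR 4 and 0 with the compared groups alone, and from 33 to 1503 with 1 library left out. The lowest of these was without HP1γ-line Treg replicate 2 and the highest without HP1α-line Treg replicate 1. Larger values outnumbered smaller ones with offsets on GC content (28 and 11), also with a replicate block (70 and 56). The same held on autosomes (58 and 41) and with offsets on abundance (624 and 433). Under the other settings with more than 1 call, smaller values were more frequent.

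The deviations of libraries with the same replicate number correlated at 0.126, -0.0552 and 0.117, not all above 0.1, and the labels name no shared source, so the numbers were not used to pair the samples. A replicate block gave 8684 peaks with the kept libraries and 5817 with all, or 10582 and 6836 with GC offsets, and 1446 and 126 for the difference between lines. Of the tests of named peaks under these alternatives, 2392 kept their direction and call, 494 kept the direction only and 0 reversed. The most calls, 65 of 137, were lost without Treg replicate 1. Depth limits these results most in Treg replicate 2, where 8853 peaks hold no read.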
